A study of Mus musculus with 10 samples.

Results

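The expression of 8 genes was studied in the EDL, psoas, and soleus muscles of the mouse. These were the LIM domain genes Csrp3, Fhl1, and Fhl2, the muscle ankyrin repeat genes Ankrd1, Ankrd2, and Ankrd23, and the Xin repeat genes Xirp1 and Xirp2. They were chosen by name for their place in stretch sensing, with earlier results of these data known. The Ensembl identifiers in the files were matched to them with the GENCODE M21 annotation of GRCm38. All 8 were found among the 16112 genes of the count tables, from which genes of very low count had been removed before deposit. The 10 libraries came from 3 EDL, 3 psoas, and 4 soleus muscles, and the mice were between 32 and 54 days old. EDL (extensor digitorum longus, a muscle of the lower leg that lifts the toes) and psoas (a hip flexor) are fast-twitch muscles, while soleus is a slow-twitch muscle of the calf. According to the methods, the mice were homozygous wild-type animals of a B6C3Fe a/a-Ttnmdm/J colony, a line kept for the mdm deletion in the titin gene, so no group carried the deletion. The labels name no treatment of the mice, which per the methods had also served in a separate study. The samples carry 7 animal codes, and 3 of these codes occur in a pair of libraries. Whole muscles were used, so every value is an average over all cell types in the sample, and fewer cells of a type cannot be told apart from less RNA per cell.

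Proteins of these families sit where force passes through the sarcomere. The LIM domain is a zinc-binding fold that docks onto other proteins, and LIM-only proteins bind titin, actin, and the Z-disk, the plate that anchors the thin filaments. The muscle ankyrin repeat proteins bind the elastic I-band part of titin and also enter the nucleus, where they act on transcription. The Xin proteins bind actin filaments through their repeats and lie at cell junctions, at the muscle-tendon junction, and in damaged stretches of the fiber. Several of these genes are known as early responders to stretch, overload, or injury of striated muscle.

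The labels of the muscles were checked with fiber-type genes. All 9 slow fiber genes (such as Myh7, the slow myosin heavy chain) were higher in soleus than in EDL and than in psoas, with summed levels of 19866 to 31884 CPM in soleus, 101 to 398 in EDL, and 59.6 to 203 in psoas. CPM here is a gene's counts scaled by the library total and by the TMM factor of the library. Total counts ran from 12737971 to 50431713 per library, and the 3 reads that an observed count of 0 allows amount to 0.0595 to 0.235 CPM before TMM scaling, a limit that covers counting error only. The reads of EDL 1, EDL 2, psoas 1, and psoas 2 were quality-trimmed before alignment, and EDL 1, psoas 1, psoas 2, and soleus 1 had low mapping rates. Per the methods, the libraries were sequenced over several runs. The run of each library is not given, so no fit held a term for it, and differences between runs were not tested. Muscles were compared with edgeR's quasi-likelihood test, fitted over all genes and all 10 libraries. Here and in every count of calls, a gene is called (differentially expressed) when the adjusted p is below 0.01 and the fold change is above 2, with p-values adjusted over all genes by the Benjamini-Hochberg method. Libraries that share a code come from the same animal, and further codes may overlap, since the methods name fewer mice than there are codes. The libraries were fitted as separate samples, so p-values measure the spread between these samples.

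Soleus stood apart from both fast muscles in most of these genes. In soleus vs EDL, 5 of the 8 genes were differentially expressed and all 5 were higher in soleus, namely Csrp3, Fhl1, Fhl2, Ankrd2, and Xirp1. Among all genes tested, 5.77% were called in this comparison and 3.59% were called higher in soleus. In soleus vs psoas, 4 of the 8 were called, all higher in soleus (Fhl2, Ankrd1, Ankrd2, and Xirp1), beside 5.69% of all genes in both directions and 2.99% in this direction. In psoas vs EDL, 1 of the 8 was called, Ankrd1, which was lower in psoas, beside 2.11% of all genes in both directions and 1.57% in this direction. The libraries of the muscles compared did not overlap in CPM for 7 of the 8 genes in soleus vs EDL (29.5% of all genes), for 7 in soleus vs psoas (25.8%), and for 2 in psoas vs EDL (29.6%). The median log2 fold change over the 8 genes was 2.1 in soleus vs EDL, 2.15 in soleus vs psoas, and 0.52 in psoas vs EDL, whereas the median over all genes was -0.05, 0.02, and 0.01. The comparisons of soleus share the soleus libraries, so their counts are not separate evidence.

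**Figure D1:**
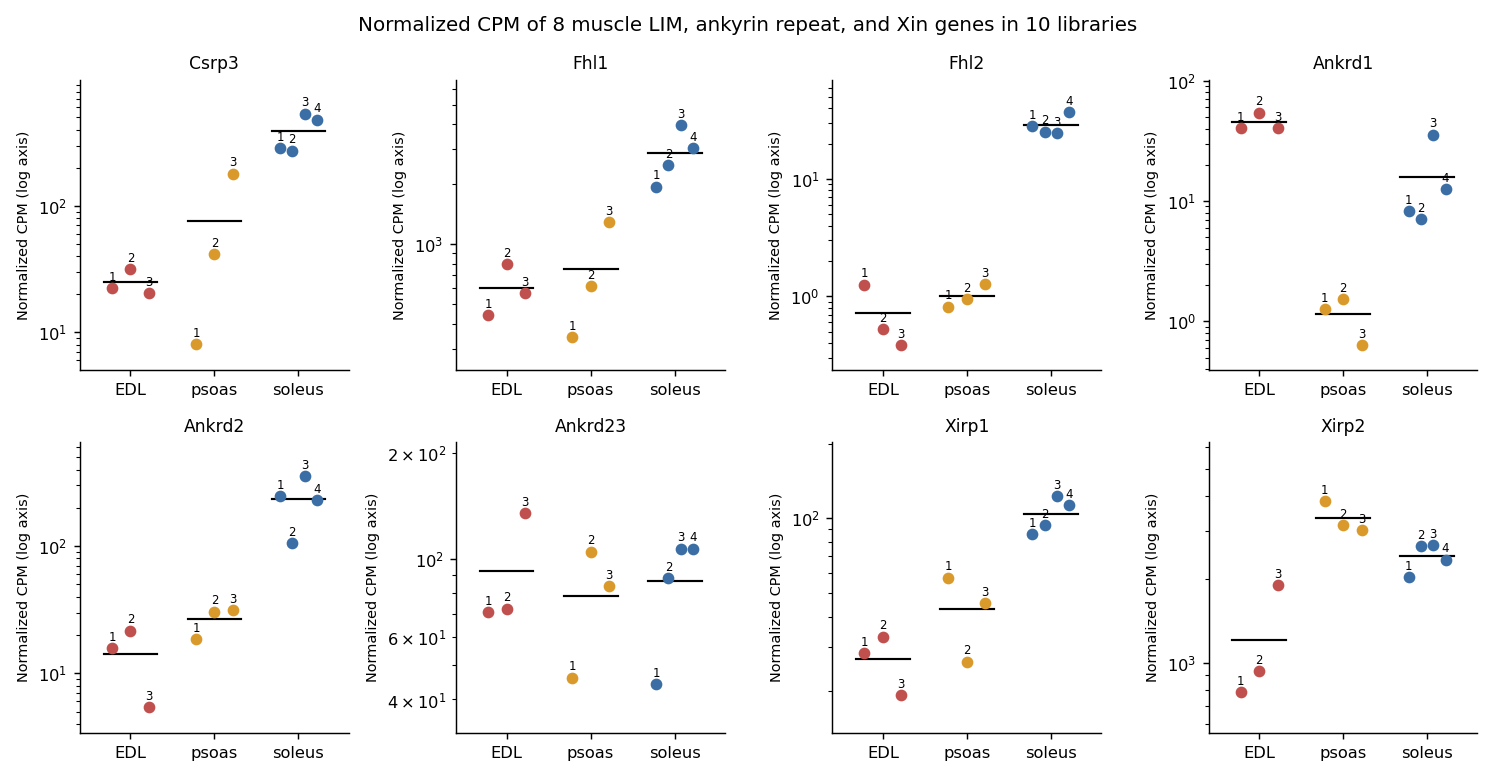
Normalized CPM (log axis) of each of the 8 genes, with 1 point per library numbered by replicate, and a black line at the mean of the muscle. Fhl2 lies near 1 CPM in EDL and psoas and between 24.6 and 37.1 CPM in soleus, Ankrd1 is highest in EDL and lowest in psoas, and the 3 muscles overlap in Ankrd23.

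**Figure D2:**
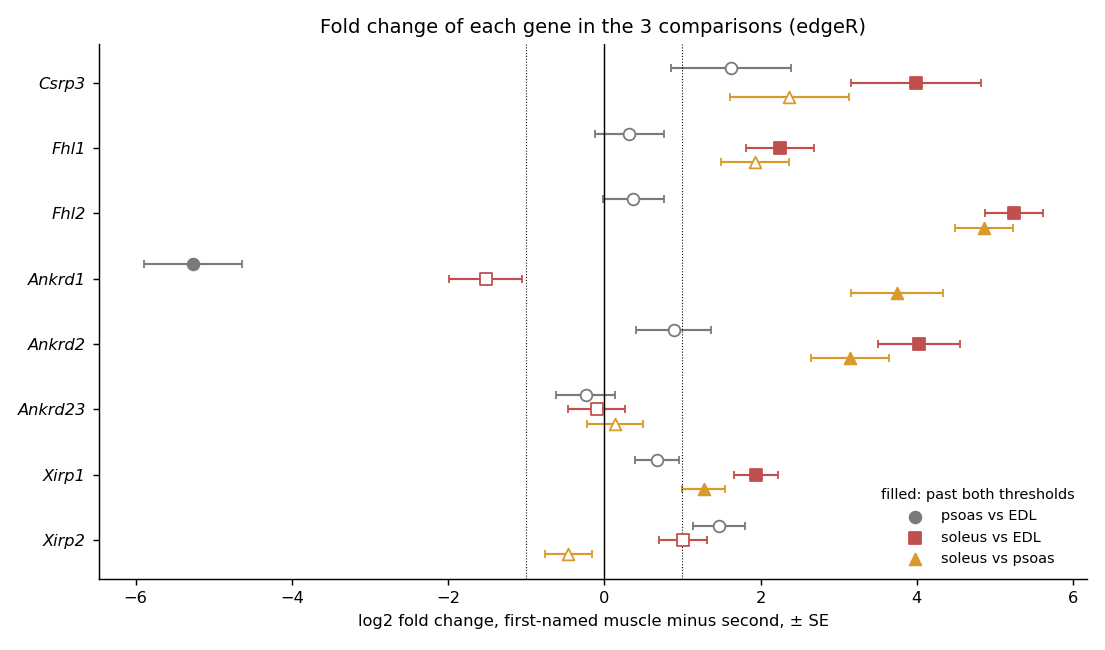
Log2 fold change of each gene (first-named muscle minus second) with its SE in the 3 comparisons, as fitted by edgeR over 10 libraries. Filled symbols passed both thresholds, and dotted lines mark a fold change of 2 in each direction. The filled symbols of the soleus comparisons all lie to the right, and Ankrd1 alone lies far to the left in psoas vs EDL.

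Stretches before the starts of the genes were searched for elements known from muscle promoters. RefSeq windows (GRCm38.p6) of 250 bases before a start were given for 7 of the 8 genes, in 11 windows, and Xirp1 was not among them. On both strands, the M-CAT element CATTCC (bound by TEAD factors) occurred in 12.6% of 32817 such windows over all genes, the E-box CANNTG (bound by myogenic factors) in 66.2%, the CArG box (bound by SRF) in 1.47%, and the MEF2 element in 2.92%. The window of Ankrd1 held 2 matches of M-CAT, at 210 and 123 bases before the start. It lies inside an exon of one longer Ankrd1 transcript in GENCODE, so these 2 sites are shown alone, with the element in capitals as read on the gene's strand (GGAATG is CATTCC on the opposite strand).
Ankrd1 (chr19:36120039-36120064, minus strand): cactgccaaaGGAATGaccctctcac
Ankrd1 (chr19:36119952-36119977, minus strand): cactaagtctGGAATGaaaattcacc

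Windows of 4 genes with unlike patterns are shown. Fhl2 and Ankrd2 were higher in soleus, Ankrd23 did not pass the test, and Xirp2 was highest in psoas. Capitals mark the CArG box and the E-box next to it in Fhl2, the 3 E-boxes in Ankrd2, the E-boxes and the M-CAT element between them in Ankrd23, and a pair of overlapping E-boxes and the MEF2 element in Xirp2. All run 5′ to 3′ on the gene's strand, and that of Ankrd2 ends where the GENCODE exon begins.
Fhl2 (chr1:43163962-43164211, minus strand): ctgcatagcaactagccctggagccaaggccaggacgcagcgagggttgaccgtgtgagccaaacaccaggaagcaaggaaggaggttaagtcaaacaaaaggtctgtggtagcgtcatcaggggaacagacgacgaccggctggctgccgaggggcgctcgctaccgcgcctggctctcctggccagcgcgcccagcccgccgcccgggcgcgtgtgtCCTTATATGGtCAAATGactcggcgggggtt
Ankrd2 (chr19:42035777-42035999, plus strand): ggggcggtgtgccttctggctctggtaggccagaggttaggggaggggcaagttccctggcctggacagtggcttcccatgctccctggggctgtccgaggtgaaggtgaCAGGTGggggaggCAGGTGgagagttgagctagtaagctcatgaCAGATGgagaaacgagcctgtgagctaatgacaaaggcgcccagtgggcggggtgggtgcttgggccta
Ankrd23 (chr1:36535740-36535989, minus strand): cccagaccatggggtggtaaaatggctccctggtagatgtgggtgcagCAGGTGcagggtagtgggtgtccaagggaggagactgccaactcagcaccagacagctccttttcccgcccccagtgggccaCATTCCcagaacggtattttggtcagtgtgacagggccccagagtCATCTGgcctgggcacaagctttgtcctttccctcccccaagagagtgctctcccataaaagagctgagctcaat
Xirp2 (chr2:67445752-67446001, plus strand): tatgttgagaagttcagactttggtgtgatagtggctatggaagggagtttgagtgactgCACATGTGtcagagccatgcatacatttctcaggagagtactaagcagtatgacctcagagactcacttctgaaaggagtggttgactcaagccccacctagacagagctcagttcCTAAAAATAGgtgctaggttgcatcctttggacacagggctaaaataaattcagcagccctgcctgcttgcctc
A CArG box was present in both windows of Fhl2 and in 1 of 2 of Fhl1, and no element of the 4 other than E-boxes was found in the windows of Csrp3 and Ankrd2. The second Fhl2 window, at the upstream start, also held a MEF2 element. These matches are descriptions of the letters, and binding was not measured.

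Fhl2 showed the widest gap between soleus and the fast muscles. Fhl2 encodes a LIM-only protein that binds titin and serves as a coactivator of transcription, best known from the heart. The gene (ENSMUSG00000008136) lies on the minus strand of chromosome 1 (chr1:43123074-43196984). Its levels in soleus 1 to 4 were 28.2, 25.3, 24.6, and 37.1 CPM. In EDL 1 to 3 they were 1.26, 0.528, and 0.384 CPM, and in psoas 1 to 3 they were 0.818, 0.951, and 1.27 CPM. Every soleus library was therefore far above every library of the fast muscles, and the fast muscles overlapped. The fold change was 37.7 in soleus vs EDL (log2 5.24, SE 0.37, edgeR adjusted p = 2.6e-05) and 29.1 in soleus vs psoas (log2 4.86, SE 0.37, adjusted p = 5.0e-05). It was called in each of 21 alternative fits in both comparisons. The low values rest on 7 to 54 reads in EDL and 15 to 31 in psoas, against 308 to 845 in soleus. Both windows before its starts held a CArG box, that of the upstream window inside a GENCODE exon. A processed pseudogene on the opposite strand within the Fhl2 locus, Gm8210, had 411 to 2229 reads per library. The library kit keeps the strand, but the methods do not state whether the counting used it, so the low Fhl2 values are uncertain to that extent.

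Fhl1, a close relative that is abundant in skeletal muscle and mutated in several inherited myopathies, was present at a much higher level in every library. The gene (ENSMUSG00000023092) lies on the plus strand of the X chromosome (chrX:56731787-56793346). On the FPKM scale, which corrects for gene length, its mean was 758 ± 238 in soleus (SD, n = 4), 201 ± 127 in psoas (n = 3), and 160 ± 49.1 in EDL (n = 3), while Fhl2 reached 14.9 ± 2.90, 0.535 ± 0.116, and 0.377 ± 0.243. The CPM of Fhl1 was 1947, 2487, 3943, and 3042 in soleus 1 to 4. It was 440, 796, and 567 in EDL 1 to 3 and 343, 618, and 1286 in psoas 1 to 3. All soleus libraries were above all others, and psoas 3 was above every EDL library while psoas 1 was below them. Soleus exceeded EDL 4.75-fold (log2 2.25, SE 0.44, edgeR adjusted p = 0.00608), a call kept in 13 of 21 alternative fits and lost, among others, when any EDL library or any of soleus 2, 3, and 4 was left out. The 3.81-fold difference between soleus and psoas (log2 1.93, SE 0.44) had an edgeR adjusted p of 0.0126 and was not called, but was called without psoas 3, where log2 was 2.57. It was also called with the animal code as a random effect (limma-voom, log2 2.02, adjusted p = 0.00301) and in limma-voom without that term (adjusted p = 0.00657). In psoas vs EDL, the log2 fold change was 0.32 (SE 0.44, edgeR adjusted p = 0.683).

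The balance within the Fhl pair was also compared, as a ratio. The log2 ratio of Fhl1 to Fhl2 per kilobase was 8.88 ± 1.21 in EDL (SD, n = 3), 8.37 ± 0.634 in psoas (n = 3), and 5.63 ± 0.525 in soleus (n = 4). Its 4 soleus values, 5.14 to 6.36, lay below the values of both fast muscles, the lowest of which was 7.48. The exact two-sided permutation p was 0.0571 for each soleus comparison, the smallest that 4 against 3 libraries can give, and 0.103 after adjustment over the 9 ratio tests made. For psoas vs EDL, exact permutation gave p = 0.6.

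Csrp3, the muscle LIM protein of the Z-disk and nucleus, separated soleus from EDL but varied widely in psoas. The gene (ENSMUSG00000030470) lies on the minus strand of chromosome 7 (chr7:48830398-48848033). Its levels were 286, 274, 537, and 480 CPM in soleus 1 to 4 and 22.4, 31.7, and 20.4 CPM in EDL 1 to 3. In psoas 1 to 3 they were 8.05, 41.3, and 180 CPM, so the psoas libraries spanned the EDL values without reaching the soleus ones. Soleus exceeded EDL 15.9-fold (log2 3.99, SE 0.83, edgeR adjusted p = 0.00789), and the call held in 10 of 21 alternative fits with adjusted p between 3.0e-05 and 0.139. It was lost when any EDL or soleus library, or psoas 2, was left out. In soleus vs psoas, the log2 fold change was 2.37 (SE 0.76) with an edgeR adjusted p of 0.0588, and without psoas 3 it was 4.01 and was called. With the animal code as a random effect it was 3.29 and was called (limma-voom, adjusted p = 0.00834), and limma-voom without that term gave an adjusted p of 0.0169. The log2 fold change of psoas vs EDL was 1.62 (SE 0.77, edgeR adjusted p = 0.19), which became -0.02 without psoas 3. Psoas 3 was thus the library that set the psoas mean of Csrp3.

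Psoas 3 was read beside the genes of like pattern and the slow fiber genes. Across the 10 libraries, the 3 genes nearest to Csrp3 in pattern were Idh2 (mitochondrial isocitrate dehydrogenase), Ldhb (the lactate dehydrogenase subunit typical of slow and cardiac muscle), and Smtnl1 (a smoothelin-like protein). Likeness was measured as the mean absolute difference of log2 CPM after centering each gene, over 8304 genes with a mean of at least 5 CPM, and was 0.52, 0.54, and 0.57. Idh2 was at 49.3, 124, and 266 CPM in psoas 1 to 3, and Ldhb at 54.1, 87.9, and 198 CPM, in the order that Csrp3 followed. Both were picked for their likeness to Csrp3 in these same libraries, so this order is no separate evidence on psoas 3. The summed slow fiber genes were 59.6, 88.5, and 203 CPM in psoas 1 to 3, of which Casq2 (cardiac calsequestrin) gave 88.5 CPM in psoas 3. Myh7 was not highest there, at 3.19, 9.95, and 5.24 CPM. EDL 3 had the highest sum of the fast-muscle libraries (398 CPM), and its Csrp3 was at 20.4 CPM, the lowest of EDL. What part the fiber makeup of the psoas 3 sample had in the level of Csrp3 was not tested. For Fhl1, the nearest genes were 2310020H05Rik, Hectd2os, and Pqlc1 (0.23 to 0.28). Those nearest to Fhl2 were Lgi1, Myom3 (a myomesin of the M-band), and Tpm3-rs7 (0.52 to 0.65), the last being a near copy of Tpm3 whose counts are uncertain for that reason.

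Among the ankyrin repeat genes, Ankrd1 and Ankrd2 differed between muscles in unlike ways, and Ankrd23 did not pass the test in any comparison. Ankrd1 encodes the cardiac ankyrin repeat protein, which is high in the heart and low in resting limb muscle. Ankrd1 (ENSMUSG00000024803, minus strand, chr19:36111961-36120099) and Ankrd2 (ENSMUSG00000025172, plus strand, chr19:42036000-42045110) lie on the same chromosome. The level of Ankrd1 was 40.4, 54.3, and 40.3 CPM in EDL 1 to 3. In psoas 1 to 3 it was 1.27, 1.52, and 0.637 CPM (48, 24, and 9 reads), and in soleus 1 to 4 it was 8.28, 7.03, 35.6, and 12.5 CPM. The muscles did not overlap, in the order EDL, soleus, psoas. Psoas was 38.5-fold below EDL (log2 -5.27, SE 0.63, edgeR adjusted p = 0.00144), the largest fold change of the 8 genes in any comparison, and the call was lost in 1 of 21 alternative fits, the one without psoas 2 (adjusted p = 0.0101). Soleus was 13.4-fold above psoas (log2 3.75, SE 0.59, edgeR adjusted p = 0.00182). That call was lost in 3 of 21 alternatives, among them the fits without psoas 1 and without psoas 2, and the adjusted p was at most 0.0118. The difference between soleus and EDL (log2 -1.52, SE 0.47) had an edgeR adjusted p of 0.0441 and was not called. Soleus 3 was nearly at the EDL level, and without it the log2 fold change was -2.34 and was called. The difference was called in 4 of 21 alternatives. Besides the fit without soleus 3, these were limma-voom, limma-voom with the animal code as a random effect, and the fit with sex, which also leaves out soleus 3.

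Markers of tendon moved with Ankrd1 between muscles. The 12 tendon cell markers summed to 1079 to 1388 CPM in EDL, 50.7 to 108 in psoas, and 128 to 753 in soleus, and no marker was at or under 3 reads in all libraries. In psoas vs EDL, 11 of the 12 were called lower in psoas (1.57% of all genes), such as Tnmd (tenomodulin, a membrane protein of tendon cells) at log2 -5.00. In soleus vs psoas, 8 were called higher in soleus (2.99% of all genes). The 4 markers of nuclei at the muscle-tendon junction summed to 72.1 to 80.5 CPM in EDL, 16.3 to 19.6 in psoas, and 39.7 to 95.3 in soleus, and the 5 markers of muscle fibroblasts to 2017 to 3601, 614 to 912, and 601 to 1280. The 3 genes nearest to Ankrd1 in pattern were Angptl7, Vit, and Itgbl1, all of them genes of secreted proteins, at 0.68, 0.82, and 0.89, a looser likeness than that of the nearest gene of any other member. Within soleus the order differed, since soleus 3 had the highest Ankrd1 (35.6 CPM) and the lowest tendon sum (128 CPM) of the 4 libraries. The same library had the highest sum of 8 immediate early genes (163 CPM, against 25.1 to 55.6 in the other soleus libraries). Immediate early genes, such as Fos, are switched on within minutes of a stimulus or of handling. Not every gene followed the sum, since Nr4a1 was lowest in soleus 3 (4.47 CPM, against 4.52 to 9.17). Nr4a1 alone was called in soleus vs psoas, lower in soleus (log2 -2.47, edgeR adjusted p = 0.00084). The median log2 fold change of the 8 was 1.76 in soleus vs psoas and -1.52 in psoas vs EDL, where none was called. Soleus 3 also came from the youngest mouse (32 days, against 42 to 44 days for the other soleus libraries), and its sex is not given. What part tendon tissue, sample handling, or age had in the level of Ankrd1 was not tested.

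**Figure D3:**
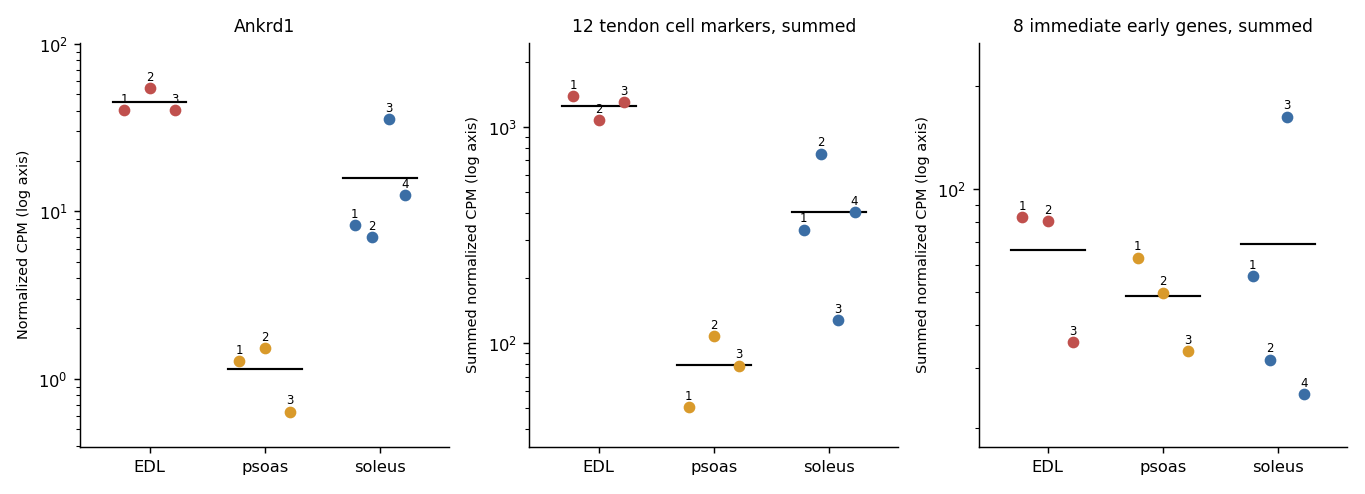
Normalized CPM (log axes) of Ankrd1, of 12 tendon cell markers summed, and of 8 immediate early genes summed, with 1 point per library numbered by replicate and a line at the mean. EDL is highest and psoas lowest for Ankrd1 and the tendon sum, while soleus 3 is the highest soleus library for Ankrd1 and the lowest for the tendon sum.

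Ankrd2, the member of the family that is typical of slow skeletal fibers, was the most soleus-biased of the 3 ankyrin genes. Its levels were 249, 106, 354, and 230 CPM in soleus 1 to 4. In EDL 1 to 3 they were 15.7, 21.7, and 5.44 CPM, and in psoas 1 to 3 they were 18.6, 30.5, and 31.2 CPM. Every soleus library was above all others, and the fast muscles overlapped. Soleus exceeded EDL 16.3-fold (log2 4.03, SE 0.52, edgeR adjusted p = 0.00060, called in 21 of 21 alternatives) and psoas 8.79-fold (log2 3.14, SE 0.50, edgeR adjusted p = 0.00189, called in 18 of 21). The latter call was lost without psoas 1 and without psoas 2, among others, and the adjusted p was at most 0.0129. The nearest genes in pattern were Acot1 (an acyl-CoA thioesterase), Zdhhc23, and Apol6, at 0.46 to 0.49. Between fast muscles the log2 fold change was 0.89 (SE 0.48, edgeR adjusted p = 0.245).

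Ankrd23 (ENSMUSG00000067653, minus strand, chr1:36530188-36536883), whose product also binds titin and has been linked to energy metabolism, was at 70.9, 72.4, and 135 CPM in EDL 1 to 3. It was at 46.1, 105, and 84.0 CPM in psoas 1 to 3 and at 44.2, 88.1, 107, and 107 CPM in soleus 1 to 4. All 3 muscles overlapped. The log2 fold changes were -0.24 (SE 0.38) in psoas vs EDL, -0.10 (SE 0.36) in soleus vs EDL, and 0.14 (SE 0.36) in soleus vs psoas, with edgeR adjusted p of 0.724, 0.865, and 0.833. Errors of this size leave room for moderate differences. The counts of Ankrd23 carry a doubt, since the annotation places a further protein-coding gene, Gm42417, across the whole gene on the same strand. Genes near to it in pattern were Aven and Snx5 (0.21 and 0.22).

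The makeup of the ankyrin family was compared as shares. Per kilobase, Ankrd2 made up 25.6, 29.4, and 6.94% of the summed level of the 3 genes in EDL 1 to 3. It made up 48.2, 40.5, and 46.6% in psoas 1 to 3 and 91.9, 72.6, 85.6, and 82.2% in soleus 1 to 4. The shares did not overlap between any of the muscles, with means of 20.6 ± 12%, 45.1 ± 4.09%, and 83.1 ± 8.05%. The exact permutation p was 0.1 for psoas vs EDL and 0.0571 for each soleus comparison, which are the smallest that 3 against 3 and 4 against 3 libraries allow (0.15, 0.103, and 0.103 after adjustment over the 9 ratio tests). Ankrd1 held 25.1 ± 4.47% of the sum in EDL, 0.823 ± 0.461% in psoas, and 2.07 ± 0.942% in soleus, and Ankrd23 held 54.3, 54.1, and 14.8%.

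**Figure D4:**
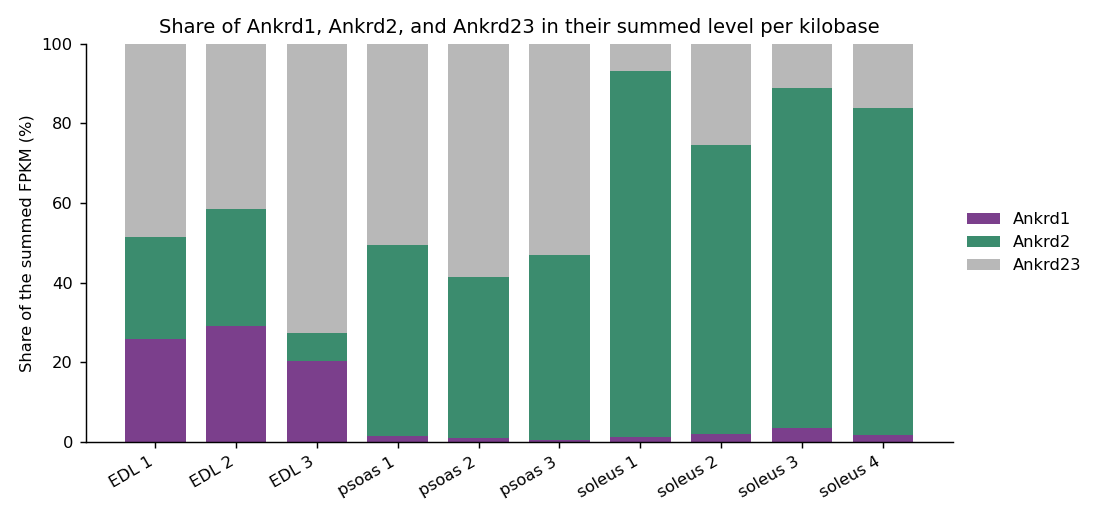
Share of Ankrd1, Ankrd2, and Ankrd23 in their summed FPKM (in %) in each of the 10 libraries. Ankrd2 makes up 72.6 to 91.9% in soleus and 6.94 to 29.4% in EDL, and Ankrd1 makes up 20.3 to 29.1% in EDL and at most 3.4% in the other muscles.

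Xirp1 and Xirp2 followed different orders. Xirp1 (Xin, ENSMUSG00000079243, minus strand, chr9:120013755-120023598) was at 86.3, 94.0, 123, and 113 CPM in soleus 1 to 4. It was at 28.4, 33.2, and 19.3 CPM in EDL 1 to 3 and at 57.5, 26.3, and 45.4 CPM in psoas 1 to 3. Soleus was above all other libraries, and psoas overlapped EDL through psoas 2. Soleus exceeded EDL 3.85-fold (log2 1.94, SE 0.28, edgeR adjusted p = 0.0011, called in 21 of 21 alternatives). The 2.41-fold excess over psoas (log2 1.27, SE 0.27) passed the threshold narrowly, with an edgeR adjusted p of 0.00992, and in 5 of 21 alternatives. It was lost without psoas 2, psoas 3, EDL 1, EDL 2, or any soleus library. In psoas vs EDL, the log2 fold change was 0.67 (SE 0.28, edgeR adjusted p = 0.142). Xirp1 lies within the locus of Cx3cr1 on the same strand, which had 3 to 83 reads per library. Genes near to it in pattern were Enah (an actin assembly factor) and Cat (catalase), at 0.24 and 0.26.

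Xirp2, the longest of the 8 genes and with Fhl1 among the most abundant per kilobase, was highest in psoas. The gene (ENSMUSG00000027022) lies on the plus strand of chromosome 2 (chr2:67446002-67526614). Its levels were 3847, 3136, and 3020 CPM in psoas 1 to 3 and 2037, 2646, 2652, and 2356 CPM in soleus 1 to 4. In EDL 1 to 3 they were 785, 932, and 1903 CPM, so EDL 3 stood near the soleus values. The muscles did not overlap. No comparison was called, with log2 fold changes of 1.47 (SE 0.33, edgeR adjusted p = 0.0187) in psoas vs EDL and 1.01 (SE 0.31, edgeR adjusted p = 0.0431) in soleus vs EDL. The first of these was called in 5 of 21 alternatives. These were DESeq2, the animal code as a random effect, trimming or sex as a covariate, and the fit without EDL 3, where log2 was 1.96. In soleus vs psoas it was -0.46 (SE 0.30, edgeR adjusted p = 0.355). The nearest genes were Satb1, Pdk2 (a pyruvate dehydrogenase kinase), and Dcaf6, at 0.15 to 0.17, the closest likeness of any member.

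The log2 ratio of Xirp2 to Xirp1 per kilobase was 4.37 ± 1.05 in EDL, 5.30 ± 0.485 in psoas, and 3.51 ± 0.193 in soleus. The psoas values (5.02 to 5.86) lay above the soleus values (3.35 to 3.78), with the smallest exact permutation p that the design allows (0.0571, adjusted 0.103). EDL overlapped both, at 3.75, 3.77, and 5.58 (exact permutation p = 0.3 against psoas and 0.171 against soleus).

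On the FPKM scale, the order of the 8 genes differed between muscles. In soleus, Fhl1 (758) was followed by Ankrd2 (204), Xirp2 (199), Csrp3 (146), Ankrd23 (31.5), Xirp1 (17.5), Fhl2 (14.9), and Ankrd1 (5.46). In psoas, Xirp2 (279) and Fhl1 (201) led, and Ankrd1 (0.398) and Fhl2 (0.535) were lowest. In EDL, Fhl1 (160) and Xirp2 (99.6) led, and Ankrd1 (15.4) stood above Ankrd2 (12.4) and Csrp3 (9.20). Ranked by mean FPKM among 16032 genes with a symbol, Fhl1 was 57 in soleus and Ankrd2 was 175, while Ankrd1 was 11828 in psoas and Fhl2 was 12539 in EDL. Between members, the closest pattern over the 10 libraries was that of Fhl1 and Xirp1 (mean absolute difference 0.47), and Ankrd1 was at least 1.79 from every other member.

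For 3 animal codes there was both a soleus library and a library of a fast muscle, so that muscles could be compared within an animal. For Fhl2, the log2 difference was 4.98 (soleus 1 minus psoas 1), 5.78 (soleus 2 minus EDL 3), and 4.78 (soleus 4 minus psoas 3). Ankrd2 differed by 3.74, 4.27, and 2.88 in the same order, and Fhl1 by 2.51, 2.13, and 1.24. Soleus was higher in each pair for these genes, for Csrp3 (5.14, 3.74, and 1.42), and for Xirp1 (0.59, 2.28, and 1.31). Ankrd1 was higher in soleus than in psoas of the same code (2.64 and 4.13) and lower in soleus than in EDL (-2.51). Xirp2 was lower in soleus than in psoas of the same code (-0.92 and -0.36) and higher in soleus than in EDL (0.48). The differences of Ankrd23 were -0.06, -0.62, and 0.34. With 1 or 2 pairs per comparison, no test was made.

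**Figure D5:**
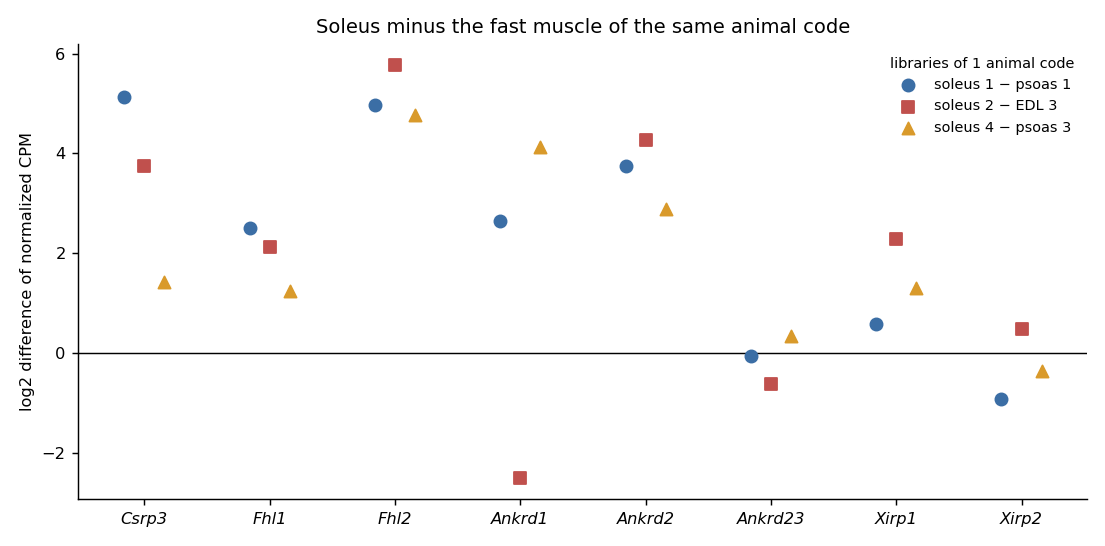
Log2 difference of normalized CPM between the soleus library and the fast-muscle library of the same animal code, for 3 codes. Fhl2, Ankrd2, Csrp3, Fhl1, and Xirp1 lie above 0 in all 3 pairs, while Ankrd1 lies above 0 against psoas and at -2.51 against EDL.

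The reads of the libraries EDL 3, psoas 3, and soleus 1 to 4 were not trimmed, and these can be compared without that difference. In the fast muscles all trimmed libraries are male and the untrimmed ones female, so trimming and sex cannot be told apart there. Soleus 1 is male, soleus 2 and soleus 4 are female, and the sex of soleus 3 is not given, so the muscles also differ in sex makeup. Among the untrimmed libraries, Ankrd1 was at 40.3 CPM in EDL 3, 0.637 in psoas 3, and 7.03 to 35.6 in soleus. Fhl2 was at 0.384, 1.27, and 24.6 to 37.1 CPM, and Ankrd2 at 5.44, 31.2, and 106 to 354 CPM. The order of the muscles in these genes was therefore the same within the untrimmed libraries, with a single library each of EDL and psoas. Over all libraries, EDL and psoas overlapped in Fhl2 and Ankrd2. Csrp3 was at 20.4, 180, and 274 to 537 CPM. In a fit with trimming as a covariate, 3 genes were called in soleus vs EDL (Fhl2, Ankrd2, and Xirp1), and Csrp3 and Fhl1 were not, with log2 fold changes of 2.71 (edgeR adjusted p = 0.139) and 1.72 (edgeR adjusted p = 0.0879). Csrp3 and Fhl1 also lost this call with sex as a covariate, at log2 3.28 (edgeR adjusted p = 0.0163) and 1.73 (edgeR adjusted p = 0.016).

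Other genes of the same pathways were counted with the same thresholds. Over all genes, 5.77% were called in soleus vs EDL, 5.69% in soleus vs psoas, and 2.11% in psoas vs EDL. Of 30 other LIM domain genes of muscle, 7 were higher and none lower in soleus vs EDL, 5 were higher and 1 lower in soleus vs psoas, and 2 were higher and 2 lower in psoas vs EDL. Those that led were Pdlim1 (log2 3.40) and Ablim1 (log2 2.65) in soleus vs EDL, which were also called in soleus vs psoas. Fhl3, the skeletal muscle relative of Fhl1 and Fhl2, had a mean of 29.4 CPM in psoas and 4.90 in EDL (log2 2.60, SE 0.31, edgeR adjusted p = 0.00144). The median log2 fold change of the 30 genes was 0.01, 0.44, and -0.12 in these comparisons, beside medians of -0.05, 0.02, and 0.01 over all genes.

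Of 25 partners of titin and the Z-disk, 8 were called higher and 2 lower in soleus vs EDL. Higher were Myoz2 (calsarcin of slow fibers, log2 4.22), Actn2 (log2 3.15), and Flnc (filamin C, log2 1.85), and lower were Actn3 (the actinin of fast fibers, log2 -3.63) and Myoz1 (log2 -1.64). In soleus vs psoas, 2 were higher and 2 lower. Between psoas and EDL none of the 25 was called, although 24 had a positive sign and the median log2 fold change was 0.82, against 0.01 over all genes. Of 12 costamere and integrin genes, 2 were higher in soleus vs EDL and 1 in soleus vs psoas (Itga7, log2 1.21), with no call in psoas vs EDL. These counts are small and stand beside 5.77, 5.69, and 2.11% of all genes called in this order.

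Genes of the factors that read tension in the nucleus were counted next, beside the 5.77, 5.69, and 2.11% of all genes called in soleus vs EDL, soleus vs psoas, and psoas vs EDL. Of 14 genes of YAP, TAZ, and TEAD, 2 were higher in both soleus and psoas than in EDL. These were Tead1 (log2 2.02 and 1.69) and its partner Vgll2 (log2 2.16 and 1.42). None of the 14 was called in soleus vs psoas. The mean of Tead1 was lowest in EDL (32 CPM), where Ankrd1 was highest, and a link between these genes was not tested. Of 19 YAP target genes, 1 was higher and 1 lower in soleus vs EDL, 2 higher and 1 lower in soleus vs psoas, and 2 lower in psoas vs EDL. Their median log2 fold change was -0.36, 0.43, and -0.71 in this order, beside -0.05, 0.02, and 0.01 over all genes. Ccn2 (connective tissue growth factor), which is a known target beside Ankrd1, was higher in soleus than in psoas (log2 2.75, SE 0.59, edgeR adjusted p = 0.00982). Ccdc80 was also higher in this comparison (log2 1.89), and Gadd45a was lower (log2 -1.93, edgeR adjusted p = 0.0008). Within soleus, Ccn2 was lowest in soleus 3 (6.7 CPM), where Ankrd1 was highest. Of 11 genes of SRF and its cofactors, 1 was lower in each comparison (Cnn2 in psoas vs EDL, Actc1 in soleus vs EDL, and Mrtfa in soleus vs psoas).

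Marker lists of other cells and states were read beside these genes. The share of all genes called was 5.77% in soleus vs EDL, 5.69% in soleus vs psoas, and 2.11% in psoas vs EDL. None of the markers of smooth muscle, endothelium, nerve and Schwann cells, adipocytes, or erythroid cells was called in any comparison (5 markers each). On the log2 scale, the median difference of the adipocyte markers was 1.94 in soleus vs EDL (4 of 5 higher) and 1.78 in soleus vs psoas (5 of 5 higher), with summed levels that overlapped between muscles. Those of erythroid cells had medians of -1.49 and -2.43 (0 of 5 higher in both). The part of these cells in the levels of the 8 genes was not tested. Of 3 spindle fiber genes, 2 were higher in soleus in both of its comparisons (Myh6 and Myh7b). The paper lists Myh6 among the genes tied to its fiber-type component, so these values do not measure spindles alone. Of 7 genes of regenerating or denervated fibers, 1 was lower in soleus vs EDL, and 2 were higher and 1 lower in soleus vs psoas. Of 5 fibroblast markers, 3 were lower in soleus vs EDL and 1 in psoas vs EDL, and of 5 macrophage markers, 1 was lower in each of these (Mrc1). Of 10 fast fiber genes, 5 were lower in soleus vs EDL and 6 in soleus vs psoas. Csrp3, Fhl1, Fhl2, Ankrd2, and Xirp1 were highest in soleus, as were the slow fiber genes. Among the fast-muscle libraries the picture was mixed. EDL 3, with the highest slow fiber sum among them, had the lowest Fhl2 (7 reads), Ankrd2, and Xirp1 (0.384, 5.44, and 19.3 CPM). Csrp3 and Fhl1 were lowest in psoas 1 (8.05 and 343 CPM), which had the lowest slow fiber sum. Within psoas, the slow fiber sum rose from psoas 1 to 3 (59.6, 88.5, and 203 CPM). Csrp3, Fhl1, Fhl2, and Ankrd2 rose in the same order, and Xirp1 did not. In psoas vs EDL, the median log2 fold change of the slow fiber genes was -2.04, while that of each of these 5 genes was above 0 and not called. The part of fiber type in their levels was not tested.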

How the data were processed

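Total RNA of whole muscles was sequenced as read pairs from stranded, ribosomal RNA-depleted libraries. The authors trimmed reads of low quality in 4 of the libraries with Trimmomatic 0.32, aligned them with TopHat2 2.1.1 to GRCm38, counted reads per gene in R, and dropped genes lacking 10 reads in 3 samples. The authors deposited one table of raw whole-number counts for each library and did not normalize them. The strand setting and the treatment of reads with several alignments are not given in the sources used here.

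Groups were taken from the sample labels. Counts were analyzed with edgeR 4.0.16 in R 4.3.3 (quasi-likelihood test, TMM, one fit over 10 libraries, no covariate, Benjamini-Hochberg adjustment), and ratios within families with exact two-sided permutation tests in scipy 1.17.1. Alternatives were DESeq2 1.42.0 (Wald test), its size factors, limma-voom (limma 3.58.1), upper-quartile normalization, filterByExpr, the compared muscles alone, covariates for trimming, mapping rate, and sex, a replicate block, the animal code as a random effect, other thresholds, and each library left out in turn. FPKM used summed exon lengths of GENCODE M21. The edgeR script was tested on simulated counts. The total count of a library sets the precision of its low values. Replicate libraries differed by more than sampling noise, so none was counted as a duplicate.

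The 8 genes and all lists were chosen with earlier results of these data known. The text names the 8 genes, at most 3 called genes per list, direction, and comparison (those of the largest fold change), and the 3 genes nearest to each member in pattern, of which some are not reported here. Fos is named as an example of its list. Replicate numbers were not taken as pairs. The fit with sex leaves out soleus 3, whose sex is not given.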

Additional observations from a re-analysis of the deposited data

How the results depend on the processing

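The 8 genes were tested in 3 comparisons under 21 alternative fits. Of the fold changes so obtained, 431 kept their direction and their side of the threshold, 42 were no longer called, 18 became called, and 13 changed sign. The number of the 8 genes called in psoas vs EDL was 2 in place of 1 with DESeq2, with the animal as a random effect, with trimming or sex as a covariate, and at an adjusted p under 0.05, and between 0 and 2 when single libraries were left out (0 without psoas 2, 2 without EDL 3). In soleus vs EDL it was 3 in place of 5 with trimming as a covariate and 3 to 5 when single libraries were left out. In soleus vs psoas it was 1 to 5 when single libraries were left out (1 without psoas 2, 2 without psoas 1). Fewer samples enter those fits, the fit with sex leaves out soleus 3, whose sex is not given, and for the other settings the cause was not tested.

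With the replicate number as a block, 2 genes in place of 4 were called in soleus vs psoas (Fhl2 and Fhl1), and the log2 fold change of Ankrd23 was -0.00. Same-numbered libraries did not deviate together in every pair (correlation 0.063 for EDL 2 and psoas 2, -0.189 for EDL 2 and soleus 2), so the numbers were not taken as pairs, although psoas 1 and soleus 1 share an animal code. The block gave 1 call in psoas vs EDL, as without it, and 4 in place of 5 in soleus vs EDL.

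The sign changes concerned Ankrd23 with small values under other settings, which were 0.01 in psoas vs EDL and -0.20 in soleus vs psoas with mapping rate as a covariate, and -0.23 with trimming and -0.35 with sex as a covariate in soleus vs psoas. When single libraries were left out, the log2 fold change of Ankrd23 ran from -0.52 to 0.13 in psoas vs EDL, from -0.31 to 0.27 in soleus vs EDL, and from -0.15 to 0.43 in soleus vs psoas. For psoas vs EDL, that of Csrp3 ran from -0.02 to 2.12 and that of Fhl1 from -0.32 to 0.63, both lowest without psoas 3. The ratios within families kept their direction when each library was left out. Over all genes, 61 to 1233 genes were called in psoas vs EDL (340 in the reported fit), 371 to 1853 in soleus vs EDL (929), and 493 to 1563 in soleus vs psoas (917). The lowest counts came without psoas 2 in both psoas comparisons and with trimming as a covariate in soleus vs EDL, and the highest at an adjusted p under 0.05. With upper-quartile normalization, the all-gene median in soleus vs EDL shifted from -0.05 to -0.14 on the log2 scale. Depth limits Fhl2 in the fast muscles and Ankrd1 in psoas, which rest on 7 to 54 reads per library.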
